A study of Mus musculus with 6 samples.

Results

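Motile cilia and ependymal genes encode the machinery of beating cilia and its regulators. The set described here holds 42 named mouse genes, of the 54532 genes counted. They were compared in cultured cortical astrocytes from control pups and from pups with a Cre-driven knockout of the neogenin gene Neo1. Members were taken by gene symbol. The table held 40 under the listed symbol, and Dnai1 and Dnai2 were found under the older names Dnaic1 and Dnaic2 through RefSeq synonyms. All 42 had reads, and 40 were measurable, meaning that they passed a filter on low counts; Mcidas and Tmem212 did not.

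RNA sequencing had been done on 6 libraries of primary astrocytes from mouse pups. Knockout cultures (3 libraries) came from GFAP-Cre::NEOf/f pups, in which a floxed Neo1 is deleted by a Cre recombinase driven by the Gfap promoter, active in astrocytes and neural progenitors. Control cultures (3 libraries) came from pups labelled only as control, with library names that point to the floxed gene without Cre. The sources used here do not state the age of the pups, the deleted exon or any pooling of animals. The libraries are called biological replicates but no pup or litter is named, so the p-values reflect only sample-to-sample spread, some of which may be technical. Neo1 RNA fell from 192 ± 5.2 to 104 ± 2.69 CPM (a gene's reads scaled to the size of its library, mean ± SD, n = 3 per group; adjusted p = 5.8e-11). Cells in which the Gfap promoter was never active would keep an intact gene, and reads from exons outside the deletion would still be counted; their parts in the RNA left were not tested.

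A motile cilium has a ring of outer microtubule doublets around a central pair. Dynein motors on the doublets are built from heavy, intermediate and light chains, preassembled in the cytoplasm and docked in place. Radial spokes and nexin links coordinate them, and the central pair apparatus signals through the spokes. In the brain such cilia stand in tufts on ependymal cells, which line the ventricles and move cerebrospinal fluid. Astrocytes and neural progenitors usually bear a single immotile primary cilium. Foxj1 and the RFX factors switch the motile programme on, and RFX factors bind a palindromic element called the X-box in promoters of cilia genes.

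The 250 bases before the annotated start were available from RefSeq (GRCm38.p6) for 36 of the 42 genes, and were searched for elements that the choice of members did not use. The X-box, searched on both strands with up to 3 bases between its arms, was in the upstream window of 7 of the 36 genes (19.4%), against 402 of 27025 genes in the whole promoter table (1.49%). A single arm, GTTGCC on either strand, which overlaps the X-box where both match, was in 14 of 36 (38.9%) against 11.8% of all genes. The forkhead core GTAAACA, on either strand, was in 3 of 36 (8.33%) against 3.54%. A match to these letters describes the sequence and is not a measured binding site. Each X-box match is printed below 5′ to 3′ on the gene's strand, with the match in capitals and up to 25 bases on each side. In Dynlrb2 the match ended 38 bases before the RefSeq start of transcription, and in Hydin 7 bases before. GENCODE M21, used for the other gene coordinates here, starts Dynlrb2 at 116504974, within its match. It starts Dnai1 at 41569775, the first base of its match.
Dynlrb2, chr8:116504939-116505001, plus strand: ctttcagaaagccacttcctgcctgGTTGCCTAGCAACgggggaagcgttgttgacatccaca
Cfap44, chr16:44394747-44394798, plus strand: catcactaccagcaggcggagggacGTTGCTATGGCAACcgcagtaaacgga
Dnai1, chr4:41569750-41569793, plus strand: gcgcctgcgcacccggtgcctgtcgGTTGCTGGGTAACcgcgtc
Dnai2, chr11:114727361-114727418, plus strand: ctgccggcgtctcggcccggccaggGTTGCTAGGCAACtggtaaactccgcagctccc
Hydin, chr8:110266931-110266976, plus strand: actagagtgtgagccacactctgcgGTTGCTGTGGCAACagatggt
Spag16, chr1:69826842-69826905, plus strand: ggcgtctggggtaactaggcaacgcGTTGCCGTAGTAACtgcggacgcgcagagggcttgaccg
Tekt2, chr4:126325680-126325742, minus strand: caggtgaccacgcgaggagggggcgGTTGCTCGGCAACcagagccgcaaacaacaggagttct

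Other members that were lower in the knockout held the single arm without an X-box match, and are printed the same way with 1 arm in capitals. They show the sequence beside the arm where the palindrome was not matched. In Tekt1 the capitals mark the arm as read on the opposite strand, and a further arm, gttgcc, follows it in lower case. GENCODE M21 starts Tekt1 at 72362442, further upstream than RefSeq, so its printed window lies inside the GENCODE gene. In Mlf1 a forkhead core on the other strand, tgtttac, stands just before the arm.
Rfx2, chr17:56831094-56831149, minus strand: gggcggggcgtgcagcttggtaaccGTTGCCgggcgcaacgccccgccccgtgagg
Enkur, chr2:21205369-21205424, minus strand: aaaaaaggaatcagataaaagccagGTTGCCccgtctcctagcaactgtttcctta
Mlf1, chr3:67373967-67374022, plus strand: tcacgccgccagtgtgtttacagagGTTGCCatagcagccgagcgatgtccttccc
Tekt1, chr11:72361887-72361942, minus strand: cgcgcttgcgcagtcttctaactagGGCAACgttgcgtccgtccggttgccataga

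Levels were compared between genes per length, as reads per kilobase of annotated exon at the same library scale (RPKM), and most members were low. The median over the 40 measurable members was 0.468 RPKM, against 3.06 RPKM over all 18530 measurable genes, and 27 of the 42 members lay below 1 RPKM. Foxj1 was the highest, at 17.9 RPKM (mean of the 6 libraries), above 84.0% of measurable genes. Tppp3, a tubulin polymerisation protein of ciliated cells that other cells also make, followed at 17.6 RPKM. Then came Cfap43 at 7.95 (uncertain, since its gene model spans another gene), the radial spoke genes Rsph1 at 6.79 and Rsph9 at 5.56, and the nexin link gene Drc1 at 3.95 RPKM. The motors themselves were far lower: the 7 dynein heavy chain genes ranged from 0.0638 RPKM for Dnah7a to 0.38 RPKM for Dnah9, and the 4 central pair genes from 0.0222 for Hydin to 0.255 for Spef2. These are long genes, with 12767 bases of annotated exon in Dnah7a and 18037 in Hydin, and the part played by transcript length in poly-A selected libraries was not tested.

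**Figure D1:**
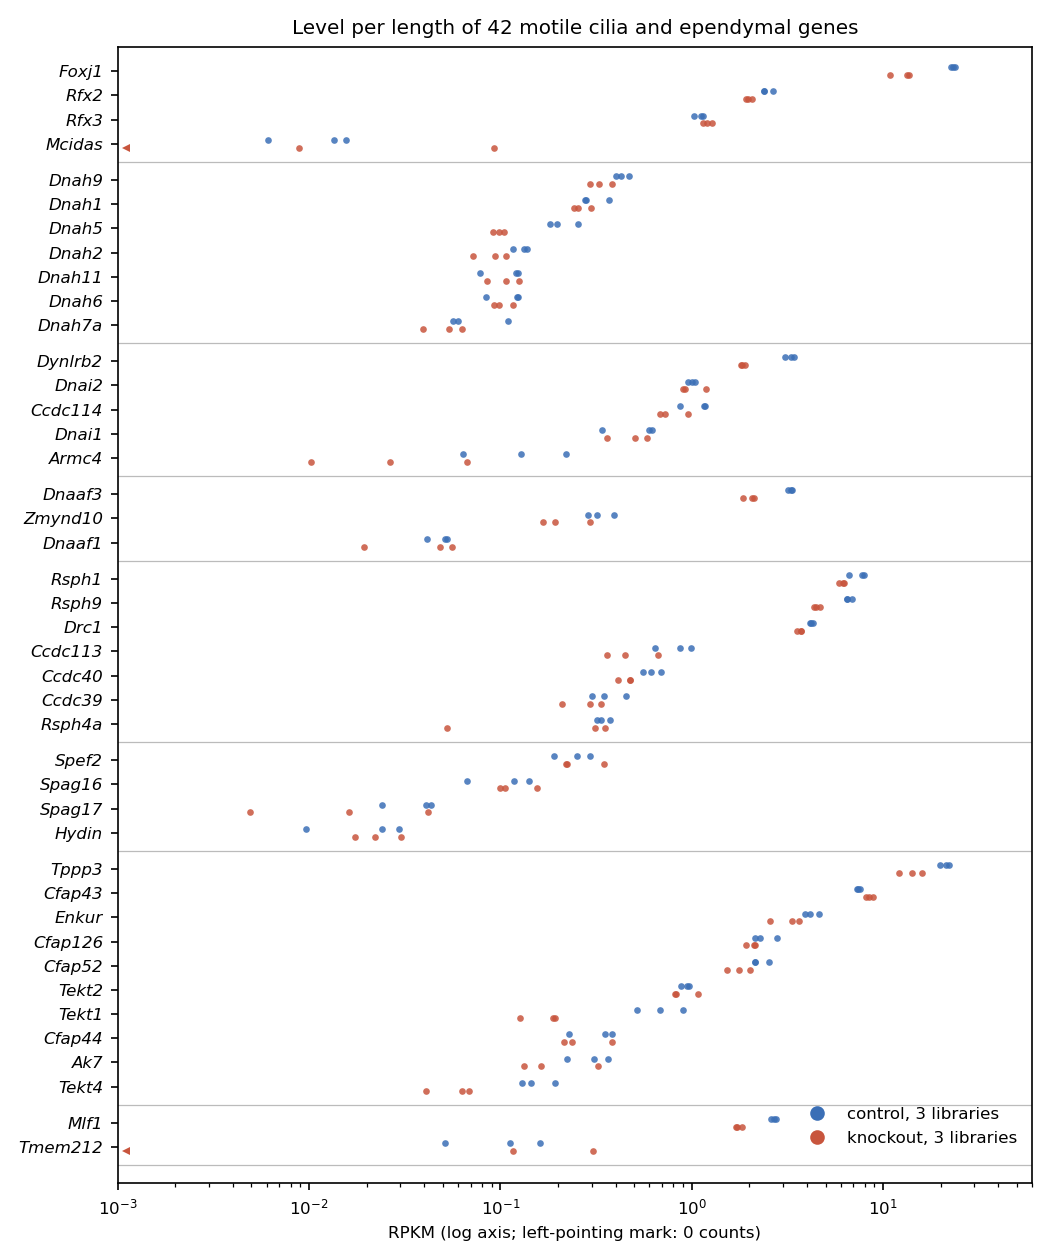
Level of each of the 42 genes (rows, grouped by role) in RPKM on a log axis, 1 point per library, control in blue and knockout in red, with a left-pointing mark for 0 counts. Foxj1 and Tppp3 stand near 18 RPKM on average, while heavy chain and central pair genes stay below 0.5 RPKM.

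Some genes of multiciliated cells in the set were at or near 0; those named next were chosen after their values were seen. Mcidas, which starts multiciliation, had 2, 1 and 4 counts in control and 2, 0 and 16 in knockout libraries. Tmem212, an ependymal membrane protein gene, had 5, 8 and 4 counts in control and 8, 0 and 16 in knockout libraries. In both genes the highest value was knockout replicate 3 and the only 0 was knockout replicate 2, so the groups overlapped. A count of 0 allows up to 3 counts, or 0.0410 CPM in knockout replicate 2, counting error only. The assembly factor gene Dnaaf1 ranged from 4 to 16 counts per library. Other structural genes of motile cilia, such as Rsph1, Rsph9 and Drc1, were at several RPKM, as given above. In bulk RNA, fewer cells of a type and less RNA per cell cannot be told apart.

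Between genotypes, 14 members were lower in the knockout and 1 was higher, out of 40 tested (edgeR's quasi-likelihood test, Benjamini-Hochberg adjusted p under 0.05 over all 18530 genes). The 15 calls are 37.5% of the members, while 38.3% of all genes tested were called, so the share called is close to the background. By direction, 18.7% of all genes were called lower and 19.6% higher. The median log2 fold change of knockout over control was −0.40 over the members and near 0 over all genes (−0.0018), and 34 of 40 members were on the negative side, against 9301 of 18530 genes. The 2 genotypes had separate ranges of CPM for 18 members, with Cfap43 the only one of them higher in the knockout; over all genes 49.3% had separate ranges. Without control replicate 1, or without knockout replicate 1, 9 members were called lower. Scaled by total counts alone, 17 were lower and Cfap43 was no longer called, and the split over all genes moved from 3627 higher and 3466 lower to 2921 higher and 4499 lower. Summed over the members, libraries held 293 to 301 CPM in control and 226 to 242 CPM in knockout. A large part of these sums came from Foxj1 (mean 60.75 CPM in control and 33.15 in knockout), Cfap43 (52.46 and 59.78) and Tppp3 (38.99 and 26.04). Among the 20 more abundant members 10 were called lower and 1 higher, with 16 log2 fold changes negative and a median of −0.336. Among the 20 less abundant 4 were called lower, with 18 negative and a median of −0.515.

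**Figure D2:**
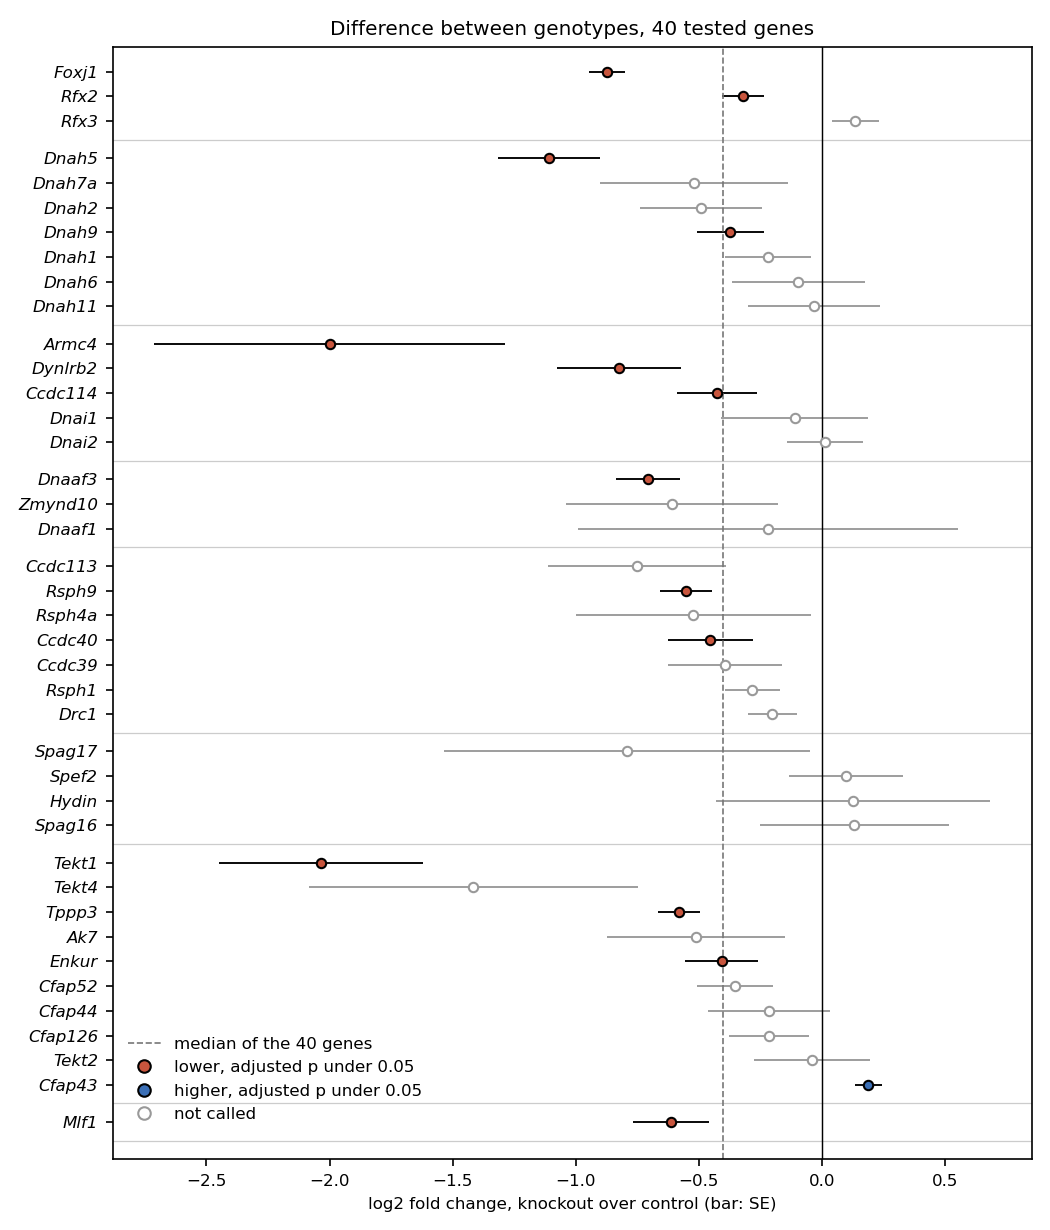
Log2 fold change of knockout over control with its SE for the 40 tested genes, grouped by role; filled points passed the test and the dashed line is the members' median of −0.40. The 14 genes called lower range from −0.32 for Rfx2 to −2.03 for Tekt1, and Cfap43 is the only gene called higher.

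Regulators. Foxj1, the forkhead factor that drives motile ciliogenesis (ENSMUSG00000034227, GRCm38 chromosome 11, 116330704 to 116335399, minus strand), stood at 62.2, 60.6 and 59.5 CPM in control replicates 1 to 3 and at 34.8, 28.7 and 36.0 CPM in knockout replicates 1 to 3. The groups did not overlap, and the lowest value was knockout replicate 2. Foxj1 fell by 0.87 on the log2 scale (SE 0.07, adjusted p = 4.5e-08), to 0.546 of the control level. Rfx2, an X-box factor of ciliated cells (ENSMUSG00000024206, chromosome 17, 56775897 to 56831013), was at 19.3, 17.5 and 17.4 CPM in control and 14.4, 15.1 and 14.0 CPM in knockout libraries. It fell less, by 0.32 on the log2 scale (SE 0.09, adjusted p = 0.0064), again without overlap. Rfx3, an X-box factor that also serves primary cilia, was at 11.3, 12.7 and 12.3 CPM in control and 14.1, 13.2 and 12.6 CPM in knockout libraries. Its groups overlapped slightly, and its log2 fold change of 0.14 (SE 0.10) did not pass the test (adjusted p = 0.29).

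Dynein heavy chains. All 7 had negative log2 fold changes and 2 passed the test (28.6%, against 38.3% of all genes). Dnah5, the outer arm heavy chain, was at 3.10, 2.84 and 3.96 CPM in control and 1.53, 1.44 and 1.64 CPM in knockout libraries. The groups were well apart, and Dnah5 fell by 1.11 on the log2 scale (SE 0.21, adjusted p = 3.7e-04). Dnah9, the second outer arm heavy chain, was at 6.77, 6.40 and 7.47 CPM in control and 5.19, 4.69 and 6.09 CPM in knockout libraries, for a decrease that passed at −0.37 log2 (SE 0.14, adjusted p = 0.040), without overlap. That call was lost without control replicate 1 (adjusted p = 0.085), control replicate 3 (0.15), knockout replicate 1 (0.10) or knockout replicate 2 (0.11). The other 5 ran from −0.52 for Dnah7a to −0.03 for Dnah11, a paired outer arm chain. The value of Dnah7a is uncertain, since reads may be split between near-identical copies. Dnah7b matches 99.9% of its transcript at 96.9% identity, and Dnah7c matches 99.6% at 96.86%. Dnah2, an inner arm chain, did not overlap between groups (1.74 to 2.06 against 1.08 to 1.60 CPM) yet missed the threshold (adjusted p = 0.13).

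Intermediate and light chains and docking. Of 5 members, 3 were called, all lower (60%, against 38.3% of all genes called), and 4 had negative log2 fold changes. Dynlrb2, a light chain shared with cytoplasmic dynein complexes, was at 1.70, 1.91 and 1.84 CPM in control and 1.02, 1.01 and 1.05 CPM in knockout libraries. Its values were tight within each group and did not overlap, and it fell by 0.82 on the log2 scale (SE 0.25, adjusted p = 0.015; 0.052 without control replicate 2). Dynlrb2 was also the 1 member called lower among the 7 with an X-box upstream. Ccdc114, a docking complex gene, was at 7.12, 7.02 and 5.25 CPM in control and 4.16, 4.43 and 5.81 CPM in knockout libraries. Control replicate 3 lay below knockout replicate 3, and the log2 fold change of −0.43 (SE 0.16, adjusted p = 0.047) no longer passed without control replicate 1 (adjusted p = 0.18), control replicate 2 (0.16), knockout replicate 1 (0.17) or knockout replicate 2 (0.099). Armc4, which helps dock outer arms, had 56, 18 and 57 counts in control and 4, 8 and 20 in knockout libraries. Its CPM values overlapped (0.261 in control replicate 2 against 0.274 in knockout replicate 3), its fitted change was −2.0 log2 (SE 0.71, adjusted p = 0.034), and the call was lost without control replicate 1 (adjusted p = 0.23), control replicate 3 (0.087), knockout replicate 1 (0.11) or knockout replicate 2 (0.064). The size of the change was −2.9 log2 without knockout replicate 3 and −1.5 without control replicate 1. The intermediate chain genes Dnai1 and Dnai2 had log2 fold changes of −0.11 (SE 0.30) and 0.01 (SE 0.15).

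Dynein assembly factors. Dnaaf3, needed to preassemble the arms, was at 7.35, 7.08 and 7.45 CPM in control and 4.60, 4.11 and 4.69 CPM in knockout libraries. The groups were well apart, and Dnaaf3 fell by 0.71 on the log2 scale (SE 0.13, adjusted p = 2.7e-04). Its exons overlap an antisense gene, Gm15873, over 12.6% of their length, and Tnni3, on the same strand, over 3.9%. Whether strand was used in counting is not stated in any source used here. Zmynd10 and Dnaaf1, which act in the same step, had log2 fold changes of −0.61 (SE 0.43) and −0.22 (SE 0.77) and did not pass. Of the exons of Dnaaf1, 20.7% overlap Taf1c on the opposite strand.

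Radial spokes, nexin links and rulers. All 7 members were on the negative side, and 2 passed the test (28.6%, against 38.3% of all genes). The groups did not overlap for 4 of the 7, while 49.3% of all genes had separate ranges. Rsph9, a spoke head protein gene, was at 10.4, 11.1 and 10.3 CPM in control and 7.17, 6.96 and 7.52 CPM in knockout libraries. It fell by 0.55 on the log2 scale (SE 0.11, adjusted p = 4.8e-04) with all knockout libraries below all control libraries. Rsph1, from the same structure, was at 10.95, 10.6 and 9.12 CPM in control and 8.60, 8.52 and 8.07 CPM in knockout libraries, a log2 fold change of −0.28 that just missed the threshold (SE 0.11, adjusted p = 0.053). Rsph4a, the third spoke head gene, had 73, 84 and 148 counts in control and 122, 14 and 83 in knockout libraries, so that knockout replicate 2 alone stood apart (log2 fold change −0.52, SE 0.48, adjusted p = 0.44). Ccdc40, which with Ccdc39 forms the ruler that spaces spokes and dyneins, was at 4.16, 3.37 and 3.69 CPM in control and 2.47, 2.86 and 2.87 CPM in knockout libraries. The groups did not overlap at −0.45 log2 (SE 0.17, adjusted p = 0.049), and leaving out any library except knockout replicate 2 took the adjusted p past the threshold, to between 0.054 and 0.18. Ccdc39, 16.9% of whose exons overlap Ttc14 on the opposite strand, was at −0.39 (SE 0.23). Ccdc113 was at −0.75 (SE 0.36, adjusted p = 0.12). Drc1, the nexin link scaffold, did not overlap between groups (11.1 to 11.6 against 9.56 to 10.1 CPM) but its log2 fold change of −0.20 (SE 0.10) did not pass (adjusted p = 0.12).

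Central pair. None of Hydin, Spag16, Spag17 and Spef2 was called by edgeR, DESeq2 or limma-voom, and 0 of the 4 had an unadjusted p under 0.05 by edgeR. Hydin, Spag16 and Spef2 had positive log2 fold changes, from 0.10 to 0.13, and Spag17 had −0.79 (SE 0.74). Their summed levels were 3.15 to 4.60 CPM in control and 3.30 to 5.07 CPM in knockout libraries. The standard errors ran from 0.23 for Spef2 to 0.74 for Spag17 (0.56 for Hydin and 0.39 for Spag16). At such standard errors a fall like that of Foxj1 would probably not have passed for Hydin, Spag16 or Spag17. The parts of depth and of spread between libraries in these standard errors were not tested.

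**Figure D3:**
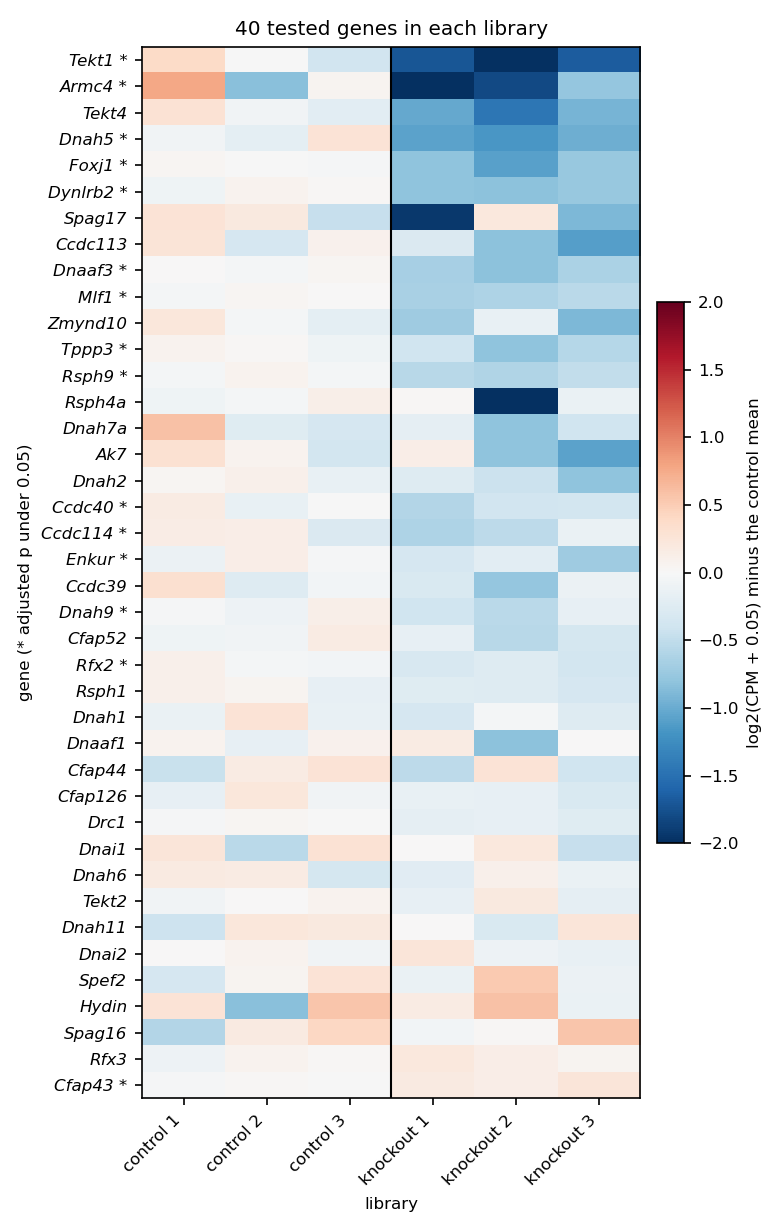
Each of the 40 tested genes (rows, ordered by log2 fold change) in each library, as log2(CPM + 0.05) minus the mean of the 3 control libraries; values beyond 2 in size take the end colour, and an asterisk marks an adjusted p under 0.05. The blue block in the knockout columns covers the upper rows, while Rsph4a is low in knockout 2 only.

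Tektins, microtubule-associated and other axonemal genes. Of 10 members, 3 were called lower and 1 higher (40%, against 38.3% of all genes called), and 9 had negative log2 fold changes. Tekt1, which encodes a filament protein inside the doublets (chromosome 11, 72344722 to 72362442), was at 1.46, 1.10 and 0.840 CPM in control and 0.304, 0.205 and 0.315 CPM in knockout libraries. All knockout libraries were far below all control libraries, and its fall by 2.03 on the log2 scale (SE 0.41, adjusted p = 7.7e-04) was to 0.244 of control. Tekt4 had 24, 20 and 28 counts against 12, 6 and 10, without overlap in CPM, and did not pass (log2 fold change −1.42, SE 0.67, adjusted p = 0.11). Tekt2 was at −0.04 (SE 0.23), and its difference from Tekt1 was not tested. Of its exons, 20.8% overlap Gm12945 on the opposite strand. Tppp3 (chromosome 8, 105467493 to 105471526) was at 40.8, 39.5 and 36.7 CPM in control and 29.5, 22.4 and 26.2 CPM in knockout libraries. It fell by 0.58 on the log2 scale (SE 0.09, adjusted p = 3.9e-05), with knockout replicate 2 the lowest library. Enkur, a protein of the inner doublet wall, was at 6.08, 7.24 and 6.46 CPM in control and 5.23, 5.67 and 4.01 CPM in knockout libraries. The groups did not overlap at −0.41 log2 (SE 0.15, adjusted p = 0.039). The call held without knockout replicate 2 (adjusted p = 0.012) and was lost when any of the other 5 libraries was left out (0.053 to 0.19).

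Cfap43 (chromosome 19, 47736857 to 47919287), an axonemal protein gene needed for ciliary beating, was at 51.6, 53.4 and 52.3 CPM in control and 59.6, 57.3 and 62.4 CPM in knockout libraries. The groups did not overlap, and it rose by 0.19 on the log2 scale (SE 0.06, adjusted p = 0.011). That call was lost with total-count scaling (adjusted p = 0.088), without control replicate 1 (0.060) and without knockout replicate 3 (0.078). The gene model of Cfap43 in the annotation used here spans the gene Itprip and shares 164 exonic bases with it on the same strand. Itprip was not analysed here, and whether its reads were counted as Cfap43 was not tested, so the level and the rise of Cfap43 are uncertain. Cfap44, Cfap52, Cfap126 and Ak7 had log2 fold changes from −0.51 for Ak7, an adenylate kinase of cilia, to −0.21, and did not pass. Mlf1, expressed in ciliated cells, was at 4.45, 4.73 and 4.61 CPM in control and 2.91, 2.97 and 3.15 CPM in knockout libraries; it fell by 0.61 on the log2 scale (SE 0.15, adjusted p = 0.0043) without overlap.

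Of the 14 genes called lower, 7 were called under each of 15 other settings: Foxj1, Rfx2, Dnah5, Dnaaf3, Rsph9, Tppp3 and Mlf1. Tekt1 was called in every setting that tested it (adjusted p from 1.2e-05 to 0.01), and the filter of 1 CPM in 3 libraries removed it. The X-box was upstream of 1 of 11 members called lower and of 6 of 23 tested members not called lower, among those with a promoter sequence. The single arm was upstream of 5 of the 11 and 8 of the 23, and the forkhead core of 1 and 2, and none of these splits was tested.

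Cilia genes outside the set were taken from lists by function. Of 57 other axonemal genes tested, 13 were called lower and 2 higher, and 42 had negative log2 fold changes (median −0.26). These calls are 26.3% of the list, below the 38.3% called over all genes. Nme5, a spoke-associated kinase family gene, fell from 6.91 to 3.89 CPM (adjusted p = 1.2e-04). Dnah8, a heavy chain best known from sperm, rose from 0.848 to 2.00 CPM (adjusted p = 8.6e-04). Of 11 other regulators of multiciliation tested, 0 were called by edgeR or limma-voom and 1 by DESeq2, and 2 had an unadjusted p under 0.05 by edgeR. Total-count scaling called 2 of them lower; Cdc20b and Foxn4, of the same list, had no read in any library. Genes of intraflagellar transport and the primary cilium, which astrocytes carry, were much more abundant (1610 to 1794 CPM summed over 50 genes). Of these, 15 were called lower and 5 higher (40%, close to the share over all genes), with a median of −0.11. Tctn2, of the transition zone at the base of the cilium, fell from 61.3 to 30.8 CPM, while Dync2h1, the motor of return transport, rose from 25.4 to 36.5 CPM (adjusted p = 8.3e-10 and 1.1e-05).

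**Figure D4:**
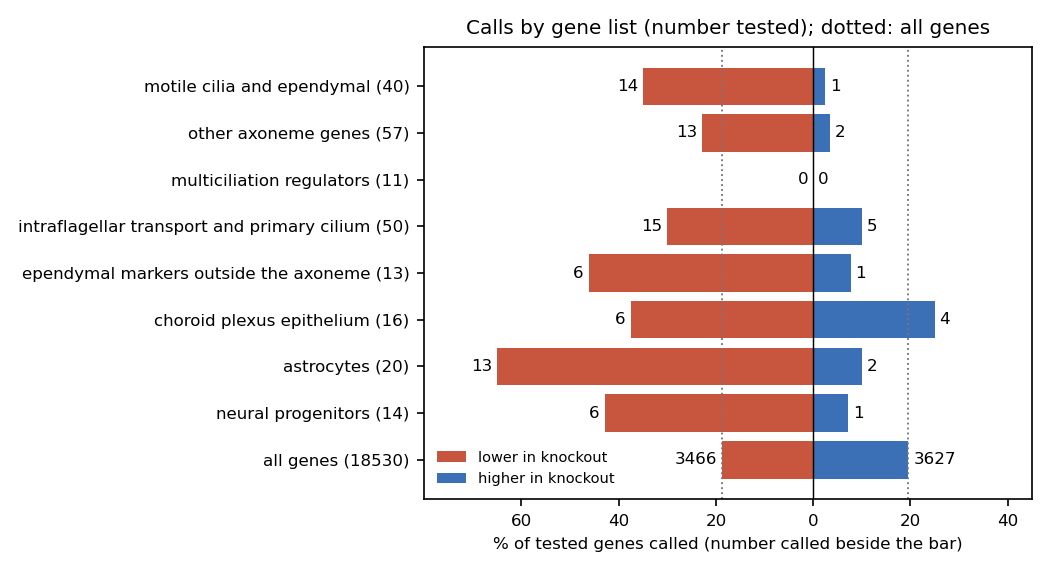
Share of tested genes called lower (red, to the left) and higher (blue, to the right) for the members and other gene lists, with the number called beside each bar and dotted lines at the shares over all genes. The members have 14 lower and 1 higher of 40, and all genes 3466 lower and 3627 higher of 18530.

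Markers of other cells were also called, some in the members' direction and some opposite to it. Their part in the members' changes was not tested. Over all genes tested 38.3% were called, and the numbers lower and higher below count called genes. The share called was 35.7% of neuronal and 41.7% of endothelial and mural markers, close to that background. It was 50% for neural progenitor, 53.8% for ependymal, 60% for oligodendrocyte lineage and 62.5% for choroid plexus markers. Astrocyte markers and cell division genes were at 75%, fibroblast and meningeal markers at 78.6%, and microglia and macrophage markers at 82.4%. Ependymal markers outside the axoneme numbered 6 lower and 1 higher of 13, with sums of 4639 to 4846 CPM in control and 3522 to 3606 CPM in knockout libraries, most of it Acta2, a smooth muscle actin that is not specific to ependyma; Mia had 1 count in all. Choroid plexus markers split into 6 lower and 4 higher of 16 (432 to 454 against 466 to 471 CPM). Their carrier protein gene Ttr had 1219, 1353 and 2048 counts in control and 1, 0 and 2 in knockout libraries, while Kcnj13, a defining channel gene of that epithelium, had 1 count in all. Of the exons of Kcnj13, 49.1% overlap Gigyf2 on the opposite strand, and 41.2% of those of Mia overlap Gm21983 on the same strand. Whether these overlaps lowered the counts of Kcnj13 and Mia was not tested. Astrocyte markers were 13 lower and 2 higher of 20 (5153 to 5195 against 4492 to 4599 CPM), and neural progenitor markers 6 lower and 1 higher of 14 (1685 to 1695 against 1228 to 1303 CPM). Microglia and macrophage markers were 13 lower and 1 higher of 17 (229 to 237 against 159 to 169 CPM). Fibroblast and meningeal markers were higher in 11 of 14 (7875 to 8369 against 11040 to 11800 CPM), and endothelial and mural markers were 4 higher and 1 lower of 12 (193 to 204 against 277 to 283 CPM). Neuronal markers were 4 lower and 1 higher of 14 (433 to 449 against 379 to 392 CPM), and oligodendrocyte lineage markers 4 lower and 2 higher of 10 (335 to 344 against 293 to 338 CPM). Cell division genes were lower in 14 and higher in 1 of 20. Total counts per library ran from 60819277 to 106081115, and knockout replicate 2 had the fewest genes detected (22076, against 23958 to 25767 in the other libraries).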

How the data were processed

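The authors deposited raw read counts per gene for 6 libraries, 1 column per library, matched to the labels by library name. Per the submitters' processing notes, HISAT2 2.2.1 and featureCounts 2.0.6 were used with GRCm38 (mm10); the sources used here do not state the annotation release, strand setting or rule for multi-mapping reads. RNA was Trizol-extracted and poly-A selected, per the labels' protocols. Of 54532 identifiers, 54495 matched GENCODE M21 (same build), which gave coordinates, exon lengths and overlaps. Genes passing filterByExpr (minimum count 10, total 15; 18530 genes) were compared by edgeR 4.0.16 under R 4.3.3 (scaling by TMM, robust glmQLFit, glmQLFTest, genotype alone, two-sided, threshold 0.05). The test was tried on simulated counts first. CPM uses TMM-adjusted library sizes; RPKM divides it by the union of annotated exons. Near-identical copies were sought with BLAST 2.17.0 (95% identity, 100 bases). Alternatives were other scalings, DESeq2 1.42.0, limma-voom 3.58.1, other filters, a replicate block and leaving out each library. The members and lists were chosen with earlier results of these data known. Values are given by library for the 4 regulators and all members called, and, chosen after their values were seen, for Rsph1, Rsph4a, Tekt4 and Tmem212; from other lists, up to 4 called genes with the smallest p were eligible, and genes near 0 were named after their values were seen. Same-numbered libraries did not deviate together (correlations 0.0151, 0.0194 and −0.0082), so no pairing was used. Armc4, Dnaaf1, Foxj1, Rsph1, Rsph4a and Tppp3 had no promoter entry. No library was a copy of another: within a group, chi-square per gene was 5.97 to 21.8, where counting noise alone gives about 1.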

Additional observations from a re-analysis of the deposited data

How the results depend on the processing

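The count of members called lower stayed within 1.5 times of 14 under median-of-ratios and upper-quartile normalisation, total-count scaling, DESeq2, limma-voom, both other filters and the fit without the robust option. With the replicate block it was 11; the numbers are not known to pair the samples. Leaving out 1 library gave 9 to 12 lower and 0 to 1 higher, with a median log2 fold change from −0.432 to −0.351. At a threshold of 0.01, 8 were lower and 0 higher, and against a fold of 1.5, 3 were lower and 0 higher; both ask for more. Total-count scaling gave 0 higher and a median of −0.465, and the filter of 1 CPM in 3 libraries, which kept 30 members, a median of −0.356; the cause of the former was not tested. Counting only members matched by symbol, a choice made after seeing the data, gave 14 lower and 1 higher of 38. Foxj1 kept its direction and its call under all 15 alternatives, from −0.937 to −0.779. Rfx2, Rfx3 and the members called also kept their sign where tested; other members were not refitted singly. The 613 other recomputed values pooled those of single members, where 34 lost a call, and counts of other lists, where 30 moved by over 1.5 times. Only single members called in the main fit could lose a call, so 613 is not the denominator of either number. Depth limits members with few reads: 10 counts were 0.0923 to 0.161 CPM.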
